A study of Mus musculus with 8 samples.

Results

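The genes followed here regulate mRNA decay: the zinc finger genes Zfp36, Zfp36l1 and Zfp36l2, the TOB genes Tob1 and Tob2, and the BTG genes Btg1 and Btg2. They were chosen by symbol in the authors' deposited comparison, and all 7 members had a row among its 20972 rows and an adjusted p among its 14653 tested genes, so no member was lost to a filter on low values. The cells were MC3T3-E1 subclone 14, a clonal mouse line of calvarial osteoblast lineage grown in serum-containing α-MEM, per the sample labels. The design text of the series instead describes human bone microvascular endothelial cells; the sample labels and the series title name MC3T3 cells and were followed. One group received 10 µM Yoda1, which opens the mechanosensitive channel PIEZO1, dissolved in DMSO, for 24 h, and the other received DMSO alone for 24 h. The labels name 4 samples per group and leave out DMSO replicate 3 and Yoda1 replicate 1 for batch variation, so the comparison rests on 3 libraries per group. Separate cultures are not stated for the replicates, and the p-values thus cover only the spread among these samples, which may be technical.

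The table gives 1 mean, 1 fold change and 1 standard error per gene over both groups, and values of single libraries were not analysed here. Depth per library was therefore unknown, and whether single libraries of the 2 groups overlap could not be seen. The osteoblast lineage markers Runx2, Sp7, Col1a1, Col1a2, Alpl, Ibsp and Spp1 all had rows in the authors' deposited table, from 47.3 mean normalized counts for Alpl to 279469 for Col1a2. Their log2 fold changes with Yoda1 were -5.91 for Alpl, -4.90 for Ibsp, -1.45 for Col1a1, -1.34 for Col1a2, -0.90 for Runx2, -0.52 for Sp7 and 2.90 for Spp1 in the authors' deposited table, and their summed implied level was 696176 normalized counts with DMSO and 524504 with Yoda1. The part of these marker differences in the members' results was not tested, and in such bulk RNA fewer cells of a type and less RNA per cell cannot be told apart. The endothelial markers Pecam1, Cdh5, Tek and Vwf stood between 0.504 and 6.37 mean normalized counts there. Lyz2, a lysozyme gene of macrophages that other cells also use at low levels, reached 97.4 mean normalized counts and Ptprc, the pan-leukocyte gene, 0.157 in the authors' deposited table. The summed implied level of the 4 macrophage markers with a row was 156.2 with DMSO and 83.9 with Yoda1. These markers did not move one way. Lyz2 and Ptprc had log2 fold changes of -1.35 and -0.875, while Csf1r and Cd68 had 1.42 and 0.07 at means of 13.8 and 8.72. The summed implied level of the 4 endothelial markers was 11.02 with DMSO and 12.87 with Yoda1. The muscle marker Des averaged 26.0 normalized counts, with a log2 fold change of -0.76.

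ZFP36 proteins bind AU-rich elements in the 3′ UTRs of short-lived mRNAs through a pair of CCCH zinc fingers and recruit the CCR4-NOT deadenylase, which removes the poly(A) tail and so starts decay. TOB and BTG proteins share an N-terminal domain that binds the catalytic CCR4-NOT subunits, and TOB proteins also bind the poly(A)-binding protein. Zfp36, also called tristetraprolin, is a serum-inducible gene of the immediate-early class, TOB and BTG proteins restrain cell proliferation, and Tob1 is known in mouse osteoblasts as a repressor of BMP signalling through SMADs.

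The 3′ UTRs of the ZFP36 genes, Tob2 and Btg2 themselves hold letters that ZFP36 proteins bind. These sites are shown because the ZFP36 genes, which moved in opposite directions, carry the same number of them. The search was for the heptamer TATTTAT on the transcript strand and for the nonamer TTATTTATT that contains it, in GENCODE M21 transcripts on GRCm38, using for each gene the transcript with the longest 3′ UTR. Capitals mark the heptamer, and the number in each name is the position of its first base after the stop codon.
Zfp36 at 575, chromosome 7: gggcccttTATTTATgacgactt
Zfp36 at 590, chromosome 7: gacgacttTATTTATtgtattaa
Zfp36 at 615, chromosome 7: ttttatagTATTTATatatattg
Zfp36l1 at 1150, chromosome 12: tcaaaacgTATTTATtgccaaac
Zfp36l1 at 1191, chromosome 12: tttgttcaTATTTATcgggatga
Zfp36l1 at 1405, chromosome 12: tgttggatTATTTATtttagaaa
Zfp36l2 at 822, chromosome 17: atttaactTATTTATtatcttgt
Zfp36l2 at 870, chromosome 17: ccatactgTATTTATcgagtatg
Zfp36l2 at 1056, chromosome 17: gtatgtaaTATTTATttcattaa
Tob2 at 852, chromosome 15: cacctgctTATTTATgtacgagg
Btg2 at 103, chromosome 1: tgaagagcTATTTATacatgttt

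Zfp36, Zfp36l1 and Zfp36l2 each held 3 heptamers, 1 of which lay within the nonamer, in 3′ UTRs of 774, 1835 and 1822 bases. Tob2 and Btg2 held 1 heptamer each and no nonamer, in 3′ UTRs of 2457 and 2199 bases. Tob1 and Btg1 held none of these letters in 767 and 4166 bases, although Btg1 held 11 copies of the core pentamer ATTTA. Of 11880 tested symbols with such an entry, which is 81.2% of the tested symbols, 30.5% held at least 1 heptamer, 8.19% held the nonamer and 2.35% held both 3 or more heptamers and a nonamer. A match to these letters is a description and not evidence of binding.

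**Figure D1:**
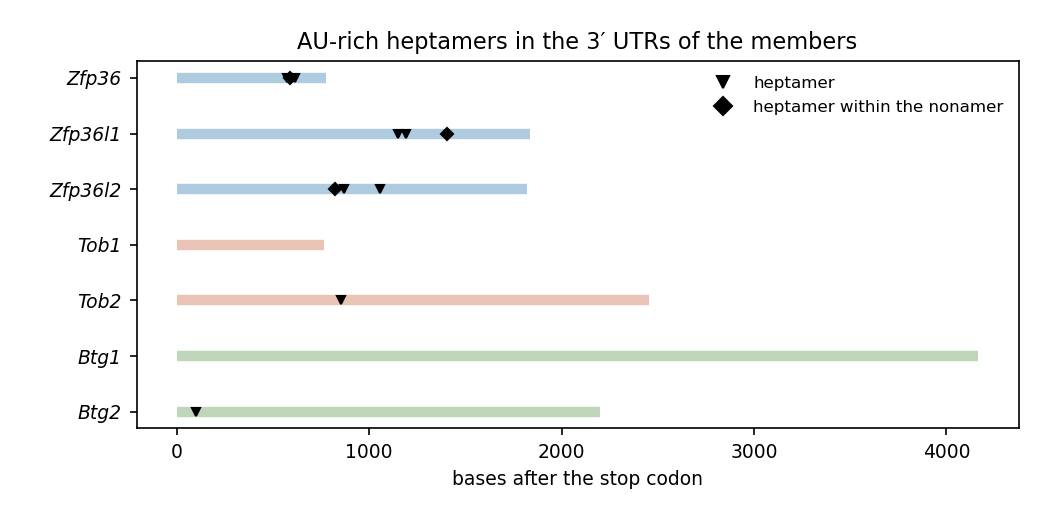
Position of the AU-rich heptamer in the 3′ UTR of each member, in bases after the stop codon; bars span the 3′ UTR, triangles are heptamers and diamonds are heptamers within the nonamer. The 3 ZFP36 genes carry 3 heptamers each, Tob2 and Btg2 carry 1 each, and Tob1 and Btg1 carry none.

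All 7 members passed an adjusted p of 0.05 in the DESeq2 test of the authors' deposited table, 4 higher and 3 lower with Yoda1. Over all tested genes 44.5% passed, 22.4% higher and 22.1% lower, or 28.2% higher and 17.1% lower when the summed counts of the groups were made equal. That scaling subtracts -0.11 from every log2 fold change, which is too little to turn the direction of any member. The members' median absolute log2 fold change was 0.72, beside 0.40 for all tested genes. The directions parted within the ZFP36 genes and within the TOB genes, while both BTG genes were higher.

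Among the zinc finger genes, Zfp36l1 and Zfp36 fell and Zfp36l2 rose. Zfp36l2 had a mean of 10716 normalized counts and a log2 fold change of 1.06 ± 0.09 (SE) in the authors' deposited table, which is 2.08-fold higher with Yoda1 (95% interval 1.85 to 2.34, adjusted p by DESeq2 5.75e-32). Zfp36l1 had a mean of 2320 and a log2 fold change of -1.21 ± 0.10 (SE) in the authors' deposited table, 2.31-fold lower with an interval of 2.02 to 2.65 (adjusted p by DESeq2 6.05e-32). Zfp36 itself had a mean of 320.8 and a log2 fold change of -0.64 ± 0.13 (SE) in the authors' deposited table, 1.56-fold lower with an interval of 1.30 to 1.86 (adjusted p by DESeq2 6.25e-06). On the log2 scale the intervals of the falling pair lay wholly below 0 and that of Zfp36l2 wholly above 0. The Wald statistics of Zfp36l2 and Zfp36l1 were nearly equal in size, 12.09 and -12.09, and 2.03% of tested genes had a larger absolute statistic than Zfp36l2 in the authors' deposited table. Zfp36l3, a further mouse relative known from the placenta, had no adjusted p at its mean of 0.844 normalized counts, as given by the authors' deposited table.

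The TOB genes moved in opposite directions. Tob1 had a mean of 1289 normalized counts and a log2 fold change of -0.75 ± 0.11 (SE) in the authors' deposited table, 1.68-fold lower with Yoda1 (95% interval 1.446 to 1.961, adjusted p by DESeq2 1.98e-10). Tob2 had a mean of 929.9 and a log2 fold change of 0.55 ± 0.13 (SE), 1.47-fold higher with an interval of 1.23 to 1.75 (adjusted p by DESeq2 0.000108) in the authors' deposited table. Tob2 was the member with the smallest change, and its call was lost when its statistic was read against a t distribution with 4 degrees of freedom (adjusted p = 0.0589, lowest and highest over the alternatives 2.82e-06 to 1). Testing for changes beyond 0.5 on the log2 scale ended the calls of Tob1, Tob2, Btg1, Btg2 and Zfp36.

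Both BTG genes of the set rose. Btg1, an antiproliferative gene of quiescent cells, had a mean of 3414 normalized counts and a log2 fold change of 0.65 ± 0.08 (SE) in the authors' deposited table, 1.57-fold higher with Yoda1 (95% interval 1.41 to 1.76, adjusted p by DESeq2 6.69e-15). Btg2, a p53 target and immediate-early gene also called Tis21 in mouse, had a mean of 522.8 and a log2 fold change of 0.72 ± 0.13 (SE), 1.65-fold higher with an interval of 1.37 to 1.97 (adjusted p by DESeq2 4.31e-07) in the authors' deposited table. The interval of Btg1 lay within that of Btg2. Processed copies of Btg1 are annotated in the mouse genome, so reads of Btg1 and its copies may have been divided between them, and its value is uncertain to that extent. Btg3, a relative outside the set, had a log2 fold change of 0.15 ± 0.21 (SE, adjusted p by DESeq2 0.614) at a mean of 377.4 in the authors' deposited table, and its interval from -0.27 to 0.56 includes both 0 and the value of Tob2. Btg4, known from oocytes, had no adjusted p at its mean of 0.157 normalized counts, as given by the authors' deposited table.

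**Figure D2:**
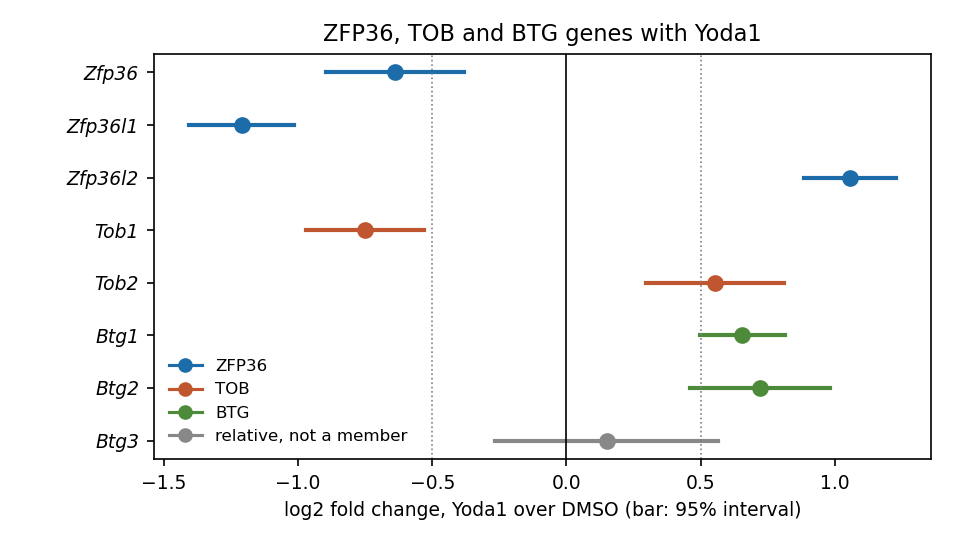
Log2 fold change of Yoda1 over DMSO for each member and for Btg3; points are the authors' values, bars their 95% intervals, and dotted lines mark an absolute log2 fold change of 0.5. Zfp36, Zfp36l1 and Tob1 lie below 0, Zfp36l2, Tob2, Btg1 and Btg2 lie above it, and the interval of Btg3 spans it.

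Levels of different genes were compared per length, as the mean normalized count per kb of the GENCODE transcript named above. The order of the 2 groups' mean level, from high to low, was Zfp36l2 at 3036 per kb, Zfp36l1 at 775.9, Btg1 at 682.6, Tob1 at 563.3, Tob2 at 224.0, Btg2 at 190.6 and Zfp36 at 115.0. Without values per library, it could not be said which neighbours in this order differ beyond their spread. Which transcripts the cells use was not analysed here, so these levels depend on the chosen lengths.

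The level in each group was computed from the authors' mean and fold change, taking 3 libraries in each group with equal weight. These implied levels carry no error of their own and describe the fold changes on a linear scale. Zfp36l2 went from 1972 normalized counts per kb with DMSO to 4100 with Yoda1, and Zfp36l1 from 1084 to 468.2. Zfp36l2 thus made up 61.7% of the summed level of the 3 ZFP36 genes with DMSO and 88.02% with Yoda1, while the share of Zfp36l1 went from 33.9% to 10.1% and that of Zfp36 from 4.38% to 1.93%. The summed implied level of the 3 ZFP36 genes was 3195 per kb with DMSO and 4658 with Yoda1.

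In the TOB pair, Tob1 stood at 706.9 per kb with DMSO and 419.7 with Yoda1, and Tob2 at 181.7 and 266.4. Per kb, Tob1 remained the higher of the pair in both groups, with 79.6% and 61.2% of the summed TOB level. That sum was 888.6 per kb with DMSO and 686.1 with Yoda1. Before division by length, Tob2 stood above Tob1 with Yoda1, at 1106 and 960.3 implied normalized counts. The order with Yoda1 thus depends on the chosen lengths. Btg1 stood at 530.3 and 834.9 per kb and Btg2 at 144.0 and 237.2. The share of Btg1 in the BTG pair was 78.6% with DMSO and 77.9% with Yoda1, so the proportions of the BTG pair were nearly equal in the 2 groups while those of the TOB pair and the ZFP36 genes were not. These shares were not tested.

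**Figure D3:**
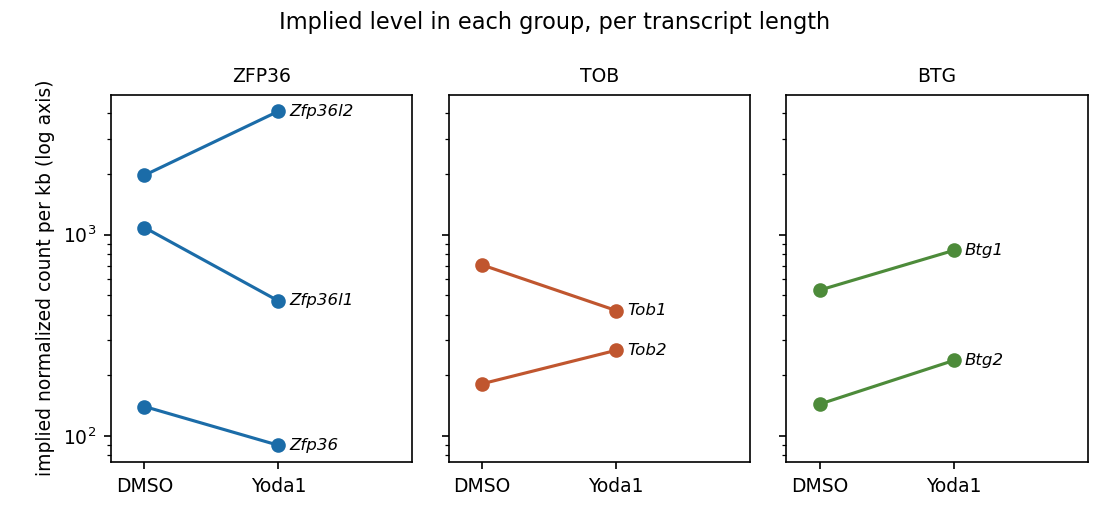
Implied normalized count per kb of transcript with DMSO and with Yoda1 for each member, on a log axis, computed from the authors' mean and fold change; each line is 1 gene and there are no error bars because no values per library were held. The line of Zfp36l2 rises from 1972 to 4100, those of Zfp36l1, Zfp36 and Tob1 fall, and those of Tob2 and both BTG genes rise.

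Promoters were read from RefSeq on GRCm38.p6, as 250 bases before to 50 bases after each start site, for 6 of the 7 members; Zfp36l2 had no entry. They were searched on both strands for the cAMP response element TGACGTCA and its core TGACG, the EGR letters GCGGGGGCG and GCGTGGGCG, the CArG box of serum response factor, and the NF-kappaB and p53 consensus decamers. The 250 bases before the start sites of Btg2 and Zfp36 are shown because they hold the longest matches, in genes that moved in opposite directions.
Btg2 at chr1:134079156-134079405, minus strand, capitals mark the cAMP response element: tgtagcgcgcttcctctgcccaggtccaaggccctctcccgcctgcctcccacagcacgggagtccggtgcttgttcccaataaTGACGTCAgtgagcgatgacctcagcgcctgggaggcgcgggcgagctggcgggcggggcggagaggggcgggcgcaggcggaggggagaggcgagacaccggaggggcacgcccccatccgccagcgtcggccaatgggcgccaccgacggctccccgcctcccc
Zfp36 at chr7:28379229-28379478, minus strand, capitals mark the EGR letters and then the CArG box: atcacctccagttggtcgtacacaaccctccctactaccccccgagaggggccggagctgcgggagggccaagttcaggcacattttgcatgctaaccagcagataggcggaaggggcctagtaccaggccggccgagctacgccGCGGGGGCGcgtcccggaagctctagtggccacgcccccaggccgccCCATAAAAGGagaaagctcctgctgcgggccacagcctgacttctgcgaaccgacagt

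The full cAMP response element of Btg2 began at position -166 from the start site, and 1.79% of the 32851 promoters in the RefSeq table held these letters. The core was matched in 3 members, Btg1, Btg2 and Tob1, beside 20.8% of all promoters, and both core matches of Btg2 lay within the full element. Zfp36 held the EGR letters GCGGGGGCG at position -105, which 2.91% of all promoters held, and a CArG box at -58, which 1.63% held. No member promoter matched GCGTGGGCG, the NF-kappaB consensus or the p53 decamer in this window, beside 0.612%, 4.51% and 8.36% of all promoters. The promoters of Zfp36l1 and Tob2 held none of the letters searched.

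Genes of the CCR4-NOT complex, which both families recruit, were lower or not past the threshold. The share called was 41.7%, beside 44.5% over all tested genes. Of 12 tested subunits, 5 were lower and 0 higher with Yoda1 (median log2 fold change -0.13, beside -0.02 over all tested genes), though 3 were lower and 1 higher when the summed counts of the groups were made equal, which subtracts -0.11 from every log2 fold change. In the authors' deposited table the scaffold gene Cnot1 had a log2 fold change of -0.31 ± 0.08 (SE), the structural subunit genes Cnot2 and Cnot3 had -0.57 ± 0.09 and -0.66 ± 0.11, and Cnot4, which encodes a ubiquitin ligase, and the deadenylase gene Cnot6 had -0.30 ± 0.11 and -0.20 ± 0.08. Cnot1 was no longer called with the t distribution (adjusted p = 0.0751, lowest and highest over the alternatives 0.000638 to 1), and neither were Cnot4 and Cnot6, which also lost their calls with equal summed counts, so 2 subunits stayed called with the t distribution. The deadenylase subunits that TOB and BTG proteins bind, Cnot7 and Cnot8, stood at log2 fold changes of -0.06 ± 0.12 and 0.07 ± 0.09, per the authors' deposited table, with DESeq2 adjusted p of 0.732 and 0.583. Their 95% intervals ran from -0.30 to 0.18 and from -0.11 to 0.25, so changes as large as those of the members lay outside them.

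Of 8 tested genes of the PAN2-PAN3 deadenylase, PARN and poly(A)-binding proteins, 3 were lower and 0 higher. That is 37.5% called, beside 44.5% of all tested genes. In the authors' deposited table Pabpc1, the main cytoplasmic poly(A)-binding protein and a partner of TOB, had a log2 fold change of -0.25 ± 0.07 (SE) at a mean of 39975 normalized counts, Pan3 had -0.41 ± 0.14 and Paip2 -0.24 ± 0.10. With equal summed counts these became 0 lower and 1 higher, so the direction of this list depended on the scaling. A t distribution left 0 calls.

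Genes of decapping and 5′-to-3′ decay moved both ways, with 2 of 18 higher and 5 lower (median log2 fold change -0.12). Calls made up 38.9% of this list, beside 44.5% of all tested genes. The enhancer of decapping gene Edc3 had a log2 fold change of 0.76 ± 0.13 (SE) and Lsm7 0.64 ± 0.16 (the authors' deposited table). Lsm4, Lsm3 and Lsm1, which encode other members of the LSM ring on oligoadenylated mRNA ends, had -0.53 ± 0.11, -0.39 ± 0.17 and -0.38 ± 0.14, and Lsm14a and Eif4enif1, which act in P-bodies, had -0.32 ± 0.09 and -0.19 ± 0.07 (the authors' deposited table). With equal summed counts the split was 4 higher and 1 lower, and the t distribution left 2 calls.

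The exosome and SKI list, which degrades RNA from the 3′ end, had 7 of 17 tested members higher and 1 lower, also with the fold changes centred on their median, and 7 and 0 with equal summed counts. The exosome core genes Exosc7, Exosc4 and Exosc2 had log2 fold changes of 0.88 ± 0.14 (SE), 0.71 ± 0.14 and 0.54 ± 0.09, and Skic8 of the SKI complex 0.87 ± 0.14, in the authors' deposited table. Dis3, a catalytic exosome nuclease, had -0.21 ± 0.08 there, and Exosc5, Hbs1l and Skic2 were the other higher members. The median log2 fold change of this list was 0.06, and 47.1% of its tested genes were called, beside 44.5% of all tested genes. The t distribution left 4 calls, all higher.

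**Figure D4:**
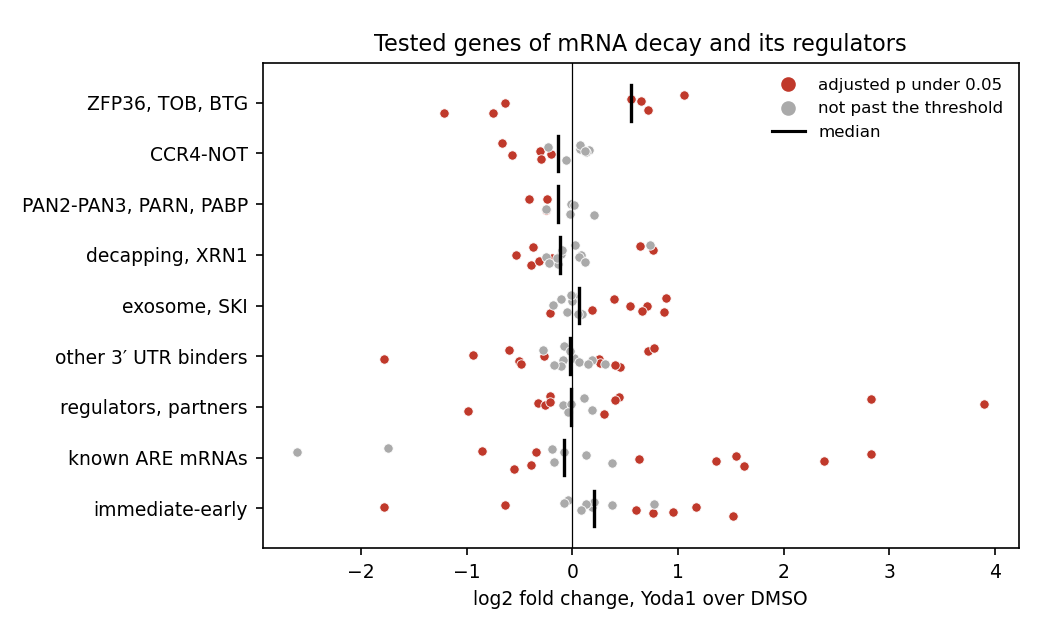
Log2 fold change of Yoda1 over DMSO for every tested gene of the members and of each list; red points passed an adjusted p of 0.05, grey points did not, and black bars are medians. The 7 members lie away from 0 on both sides, with a median of 0.55, and single genes of the lists also lie away from 0 on both sides. The medians of the CCR4-NOT, poly(A)-binding, decapping and exosome lists lie between -0.13 and 0.06.

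Other regulators that bind 3′ UTRs were divided, with 6 of 23 higher and 6 lower (median log2 fold change -0.02), though the t distribution left 1 higher and 4 lower. Before that change 52.2% were called, beside 44.5% of all tested genes. The cytoplasmic polyadenylation element binding gene Cpeb3, whose protein binds TOB, had the largest change of this list, with a log2 fold change of -1.78 ± 0.25 (SE) at an average of 165.5 normalized counts, per the authors' deposited table. The AU-rich element binding gene Hnrnpd had -0.50 ± 0.09, Igf2bp3 -0.94 ± 0.18, and the Smaug gene Samd4, which also recruits CCR4-NOT, 0.77 ± 0.08 (the authors' deposited table).

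The kinase pathway that acts on ZFP36 proteins and their other partners had 5 of 15 tested genes higher and 5 lower (median log2 fold change -0.01). This is 66.7% called, beside 44.5% of all tested genes. The p38 kinase genes Mapk14 and Mapk11 were among the 5 not past the threshold, at log2 fold changes of -0.09 and 0.11. Mapkapk2 encodes the kinase that phosphorylates ZFP36 downstream of p38, which hampers its recruitment of deadenylase, and it had a log2 fold change of 0.44 ± 0.08 (SE, adjusted p by DESeq2 7.34e-07) in the authors' deposited table. Its relative Mapkapk3 had 0.30 ± 0.11, in the authors' deposited table, and its call was lost with the t distribution (adjusted p = 0.126, lowest and highest over the alternatives 0.000446 to 1). Dusp1 and Dusp4, phosphatases that end MAP kinase signals, had 2.82 ± 0.16 and 3.90 ± 0.23 (the authors' deposited table), and Ywhag was the fifth higher member at 0.41 ± 0.06. The 5 lower members also encode 14-3-3 proteins, the family that binds phosphorylated ZFP36. Ywhae had a log2 fold change of -0.99 ± 0.11, and Ywhab, Ywhah, Ywhaq and Ywhaz had -0.32 ± 0.09, -0.25 ± 0.11, -0.21 ± 0.07 and -0.21 ± 0.07 (the authors' deposited table). With equal summed counts, the calls of Ywhah, Ywhaq and Ywhaz were lost and the list's split was 6 higher and 2 lower. With the t distribution the calls of Ywhab, Ywhah, Ywhaq and Ywhaz were lost, with Ywhae the 1 lower gene left beside 4 higher. Prmt1, an arginine methyltransferase that binds BTG1 and BTG2, had 0.19 ± 0.10 (SE, adjusted p by DESeq2 0.133) in the authors' deposited table and passed with equal summed counts (adjusted p = 0.0125, lowest and highest over the alternatives 0.0125 to 1).

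Textbook mRNAs with AU-rich elements that ZFP36 proteins bind did not move one way. Of 24 such genes, 18 had a row and 17 were tested, of which 6 were higher and 4 lower (median log2 fold change -0.08). Those called were 58.8% of the tested ones, beside 44.5% of all tested genes. The cytokine genes Tnf, Il10, Il2, Il1b, Cxcl1 and Cxcl2 had no row under these symbols, and Il6 averaged 3.25 normalized counts in the authors' deposited table. The higher genes Ptgs2, Ier3, Vegfa and Dusp1 held 6, 4, 3 and 3 heptamers in their 3′ UTRs and stood, in the authors' deposited table, at log2 fold changes of 2.38 ± 0.10, 1.62 ± 0.10, 1.55 ± 0.08 and 2.82 ± 0.16 (SE). The lower genes Notch1 and Hif1a held 4 and 3 heptamers and stood there, in the authors' deposited table, at -0.85 ± 0.18 and -0.55 ± 0.08. Genes with equal numbers of heptamers thus stood on both sides. Myc, also lower but not called with the t distribution, had -0.39 ± 0.12 and held none, and the remaining higher genes were Plaur with none and Ccnd1 with 1.

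Immediate-early genes, the class to which Zfp36 and Btg2 belong, had 5 of 15 tested members higher and 2 lower at 24 h (median log2 fold change 0.21). With equal summed counts 8 were higher and 2 lower. The share called was 46.7%, close to the 44.5% over all tested genes. In the authors' deposited table the orphan receptor gene Nr4a1 had a log2 fold change of 1.52 ± 0.13 (SE), Fosl1 1.17 ± 0.13, Egr3 0.95 ± 0.18, Klf4 0.77 ± 0.09 and Junb 0.60 ± 0.08. Egr2 had -1.79 ± 0.19 and Klf6 -0.64 ± 0.08 (the authors' deposited table). Zfp36 thus stood with the 2 lower and Btg2 with the 5 higher genes of its class. No gene of like pattern could be named for the members, since likeness needs values per library and the table holds 1 comparison.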

How the data were processed

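One table was used, the authors' deposited comparison of Yoda1 with DMSO. The authors used Salmon and DESeq2 with build GRCm39, per the submitters' processing notes, which give no versions. Their design formula is not given in the sources used here. Per the file headers, the authors gave for each gene a mean normalized count (a signal averaged over libraries), a log2 fold change, its error, a Wald score, a p-value and a Benjamini-Hochberg adjusted p-value. Recomputing the p-values from these columns gave the deposited ones, and the direction (Yoda1 over DMSO) of the fold change rests on the table's name. The main test was the authors' DESeq2 comparison at an adjusted p under 0.05 over 14653 tested genes, since no counts per library were held. Ratios and 95% intervals used the normal distribution. Implied group levels solve the mean and the fold change for 3 libraries per group. Lengths and 3′ UTRs came from GENCODE M21 and promoters from RefSeq, both on GRCm38, matched by symbol. Calculations used Python 3.11.15, pandas 2.3.3 and scipy 1.17.1 and were tested on simulated data.

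The members and the 9 gene lists were chosen with earlier results of these data known. Named genes are the 7 members, 3 relatives and 7 partners whatever their result, in each list the 4 called genes with the smallest adjusted p, and all called genes of a direction with 5 or fewer; 1 gene that this rule names is not reported here. Alternatives were other filters, centrings, reference distributions and fold thresholds.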

Additional observations from a re-analysis of the deposited data

How the results depend on the processing

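All 7 members kept their direction in all 9 alternatives run, but the settings fixed this in advance. Only the centrings alter a fold change. They subtract -0.017 (trimmed mean), -0.015 (median) or -0.105 (equal summed counts) on the log2 scale, while the smallest member change was 0.55 (Tob2). All 7 stayed called with no filter on low values and with a stricter filter (5 times the lowest mean tested). The same held for centring on the trimmed mean, the median or equal summed counts, and for a fold threshold of 0.5 on the log2 scale. Against the t distribution (4 degrees of freedom) 6 stayed called, and 2 did (Zfp36l1 and Zfp36l2) both when changes had to exceed 0.5 by test and with a threshold of 1. Over all 14653 tested genes 6518 were called, 22.4% higher and 22.1% lower. The t distribution left 2990 (10.4% higher and 10% lower) and the test against 0.5 left 1393 (4.79% and 4.72%). The threshold of 0.5 left 3977 (13.8% and 13.3%) and that of 1 left 1486 (4.92% and 5.22%). Over the lists, 61 of 124 tested genes were called, beside 44.5% of all tested genes, and 33, 13, 33 and 10 of the 124 under those same 4 alternatives. Equal summed counts moved the split over all genes from 3285 higher and 3233 lower to 4138 and 2500, and over the lists from 30 and 31 to 40 and 17. Cnot7, which was not called, changed sign there to 0.04 (adjusted p = 0.812, lowest and highest over the alternatives 0.702 to 1). The cause of these changes was not tested. No paired analysis was possible because the table holds 1 comparison and no values per library, and for the same reason leaving out replicates or adding the 2 excluded libraries was not run. The members' standard errors, from 0.08 to 0.13 on the log2 scale, limit what can be detected for them; depth per library is unknown.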

Other observations

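Across all tested genes with a 3′ UTR entry, the genes with more AU-rich heptamers were slightly lower with Yoda1. The median log2 fold change was 0.02 for 8262 genes with no heptamer, -0.04 for 2354 genes with 1, -0.12 for 795 genes with 2 and -0.13 for 469 genes with 3 or more. The share called lower was 23.1% with no heptamer and 30.1% with 3 or more, and the share called higher was 26.6% and 18.1%. The median 3′ UTR length rose with the number of heptamers, from 872 to 3293 bases. Among genes between the quartiles of 3′ UTR length, from 510 to 2284 bases, the medians were -0.02 with no heptamer and -0.08 with 3 or more, and the 425 genes with the nonamer stood at 0.05. Within these lengths the share called higher was 24.1% with no heptamer and 22.8% with 3 or more, the latter a class of 127 genes. The share called lower was 25.6% with no heptamer, 27.5% with 1, 25.4% with 2 and 30.7% with 3 or more, so it did not rise at each step. Of the nonamer genes of these lengths, 25.6% were called higher and 21.4% lower. These are descriptions across genes, which are not independent replicates, and the part of 3′ UTR length in them was not tested.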
